A study of Homo sapiens with 4 samples.

Results

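MDM2, PPM1D and DDB2 are 3 target genes of the transcription factor p53, measured here in SW480 cells treated with a bacterial postbiotic. They were taken by the gene name printed in the spot tables, which gave 3 probes of 1843 genes measured and 6 of 3840 spots per array, each probe being printed as a pair of spots. The genes were chosen with their ratios on these arrays known, so those ratios are a description, and no test is given for them.

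p53 is a transcription factor that damaged DNA and other stresses stabilise, and it switches on genes for cell cycle arrest, repair and cell death. It also switches on its own brakes. MDM2 is the ubiquitin ligase that marks p53 for degradation, and PPM1D (WIP1) is a phosphatase that removes the phosphates which damage kinases place on p53 and on the kinases themselves. DDB2 is the subunit of the UV-DDB complex that recognises ultraviolet lesions and hands them to XPC for nucleotide excision repair. SW480, an established line from a colon adenocarcinoma, is known to carry mutant p53, so transcription of these genes there need not run through p53.

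The tested cells received 15% (v/v) of a postbiotic of Bacillus mojavensis (BM), a preparation from a culture of that bacterium in MRS broth, for 10 h. The control cells received 15% (v/v) of MRS medium alone for the same time, and both groups were grown in DMEM F12 with 10% serum. Each group held 2 samples that the labels call biological replicates, without saying whether they were separate cultures, so any p-value measures only the spread between these samples. Each of the 2 two-colour oligonucleotide arrays carried 1 BM and 1 MRS sample of the same replicate number. Both arrays carried BM in the Alexa Fluor 647 channel and MRS in the Alexa Fluor 555 channel, and without a dye swap the effects of dye and treatment on a gene cannot be told apart. Titles were used to assign the groups, since the field for treatment lists the MRS medium in every sample.

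Raw intensity had a median of 1655 and 1895 in the BM samples, against 1985 and 2186 in the MRS samples, over median local backgrounds of 79.5 and 101.7 (BM) and 49.6 and 51.9 (MRS). The deposited net intensities, which the series matrix repeats on a linear scale without centring, had medians of 1923 and 2137 in BM and 1930 and 2127 in MRS. Of the cell type markers on the array, all 9 of colon epithelium, all 6 of leukocytes and all 7 of fibroblasts reached 1.5 times their local background in all 4 samples. So did 1766 of all 1843 genes. Signal above background therefore did not tell the labelled cell type from cells that the culture should lack. The summed net intensity of the epithelial markers was 37452 and 33643 in BM, against 36994 and 34549 in MRS, and that of the leukocyte markers was 29740 and 25326 in BM, against 30137 and 25960 in MRS. That of the fibroblast markers was 49478 and 60028 in BM, against 49946 and 61915 in MRS, and their part in the results was not tested. COL3A1 was the brightest of the fibroblast markers and weighs most in their sum. Its mean log2 intensity of both channels was 15.1 on array 1 and 15.5 on array 2. The sums thus do not compare the cell types with each other. In bulk samples, fewer cells of a type and less RNA per cell cannot be told apart.

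The genomic setting of the 3 genes is given on GRCh38.p14 from RefSeq. MDM2 lies at chr12:68808172-68850686, PPM1D at chr17:60600193-60666280 and DDB2 at chr11:47214454-47239217. The start windows of these genes (250 bases before to 50 after each annotated start, 4 windows for MDM2, 1 for PPM1D and 2 for DDB2) were searched for the p53 response element, a pair of decamers that each fit the p53 consensus, on both strands (the consensus reads the same on both), with at most 1 base between them and at most 3 of 20 bases off the consensus. The best matches are printed because elements of this kind are what p53 is known to bind at its target genes. Capitals mark bases that fit the consensus and lower case marks the bases that do not, the spacer and 4 flanking bases on each side.
MDM2, first site, chr12:68808923-68808942: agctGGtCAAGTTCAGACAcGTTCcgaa
MDM2, second site, chr12:68808961-68808980: aaggAGttAAGTCCtGACTTGTCTccag
DDB2, chr11:47214979-47214999: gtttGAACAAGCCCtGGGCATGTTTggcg

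The DDB2 site fitted the consensus at all 20 bases, which was met by 7 of 34796 start windows (0.0201%). It begins 5 bases after the downstream of the 2 annotated starts of the gene, and a second match with 1 base off overlaps it. The MDM2 sites had 2 and 3 bases off the consensus, limits that 1.34% and 9.76% of all start windows met, and they begin at positions -94 and -56 relative to the third of the annotated starts of MDM2. The PPM1D window held none, with 4 bases off at best, which 41.3% of windows met. A match is a description of these letters and not of binding, and no match says only that the letters are not in this window.

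MDM2 was lower in BM on both arrays. Its 2 spots gave deposited net intensities of 5666 and 4334 in BM replicate 1 and 5372 and 3582 in BM replicate 2. In MRS they gave 6227 and 4688 in replicate 1 and 5990 and 4118 in replicate 2. Each BM spot lay below the same spot in the MRS channel of its array, at 0.910, 0.924, 0.897 and 0.870 of it.

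Averaged over both spots, MDM2 had 4999.8 and 4477 in BM, against 5458 and 5054 in MRS. The groups did not overlap, but the gap between the higher BM and the lower MRS sample was small and lay between arrays. Both BM samples lay below both MRS samples in this way for 2.88% of the 1843 genes. The spots themselves differed by 28.2% and 40.7% of their mean in BM and by 28.2% and 37.0% in MRS, before the authors' correction of BM. The difference between the spots was thus larger than that between the groups, and the comparison rests on the ratio within a spot.

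**Figure D1:**
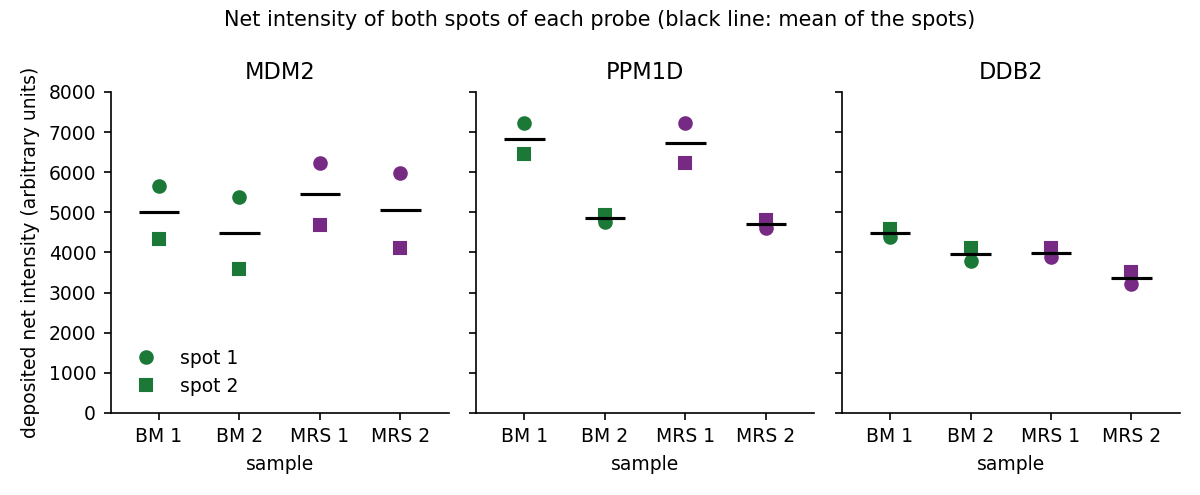
Deposited net intensity (arbitrary units) of both spots of each probe in the BM and MRS samples, with the mean of the spots as a black line. MDM2 means are 4999.8 and 4477 in BM and 5458 and 5054 in MRS, the PPM1D values separate by array and not by group, and each DDB2 mean is higher in BM than in the MRS sample of the same replicate number.

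PPM1D differed far more between the arrays than between the treatments. Its spots had net intensities of 7219 and 6454 in BM replicate 1 and 4757 and 4939 in BM replicate 2. In MRS they had 7239 and 6223 in replicate 1 and 4601 and 4819 in replicate 2. The first spot on array 1 was lower in BM, at 0.997 of MRS, and the other 3 pairs were higher, at 1.04, 1.03 and 1.03.

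The PPM1D means were 6837 and 4848 in BM, against 6731 and 4710 in MRS. Both samples of array 1 thus lay above both samples of array 2, and the groups overlapped. These intensities were not scaled between arrays, so the difference between replicates 1 and 2 includes any difference in labelling or hybridisation, whose part was not tested.

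DDB2 was higher in BM on both arrays. Its spots had net intensities of 4385 and 4596 in BM replicate 1 and 3784 and 4116 in BM replicate 2. In MRS they had 3874 and 4108 in replicate 1 and 3221 and 3503 in replicate 2. Each BM spot lay above the same spot in the MRS channel, by 1.13, 1.12, 1.18 and 1.18 times.

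The DDB2 means were 4490 and 3950 in BM, against 3991 and 3362 in MRS. Within each array BM was the higher sample, while BM replicate 2 lay just below MRS replicate 1, so the groups overlapped across arrays. Both BM samples lay above both MRS samples for 3.09% of genes, and DDB2 was not among them.

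The deposited BM net intensities carry a factor of the authors on top of raw minus background, which was 1.17 to 1.23 for the spots of MDM2, 1.07 to 1.09 for PPM1D and 1.13 to 1.16 for DDB2. Before that factor, and with local background subtracted, the BM channel over the MRS channel was 0.775 and 0.774 for the MDM2 spots on array 1 and 0.734 and 0.706 on array 2. The median spot stood at 0.828 on array 1 and 0.862 on array 2, so MDM2 was below the median spot on both. The DDB2 spots stood above it, at 0.981 and 0.964 on array 1 and at 1.04 and 1.04 on array 2. The PPM1D spots also stood above it, at 0.923 and 0.948 on array 1 and at 0.969 and 0.961 on array 2. All members were bright spots, with raw signal between 29.1 and 158.0 times the local background. Plain background subtraction in place of normexp (an alternative correction) was also run, followed by the loess normalization described next. The mean log2 ratios after both steps were -0.21 for MDM2, 0.12 for PPM1D and 0.24 for DDB2.

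The log2 ratio of BM over MRS was then taken after loess normalization within each array, which removes the trend of the ratio with intensity. MDM2 had log2 ratios of -0.15 on array 1 and -0.26 on array 2, with a mean of -0.21 ± 0.075 (SD, n = 2), or 0.866-fold in BM. DDB2 had 0.19 and 0.28, with a mean of 0.23 ± 0.064 (SD, n = 2), or 1.17-fold. PPM1D had 0.083 and 0.15, with a mean of 0.11 ± 0.046 (SD, n = 2), or 1.08-fold. All 3 lay further from 0 on array 2 than on array 1.

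MDM2 was thus 1 member lower on both arrays, as were 28.5% of the 1843 genes, and PPM1D and DDB2 were 2 members higher on both, as were 24.6%. Ratios of opposite sign on the arrays were found for 46.8% of genes. In the limma fit over all genes, 0 of 1843 passed an adjusted p of 0.05 (0%), and 121 genes (6.57%) had an unadjusted p under 0.05. In the same direction, 20 genes in all, DDB2 counted, had ratios on both arrays at least as large as the smaller DDB2 ratio. For MDM2 this number was 35 and for PPM1D 95.

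**Figure D2:**
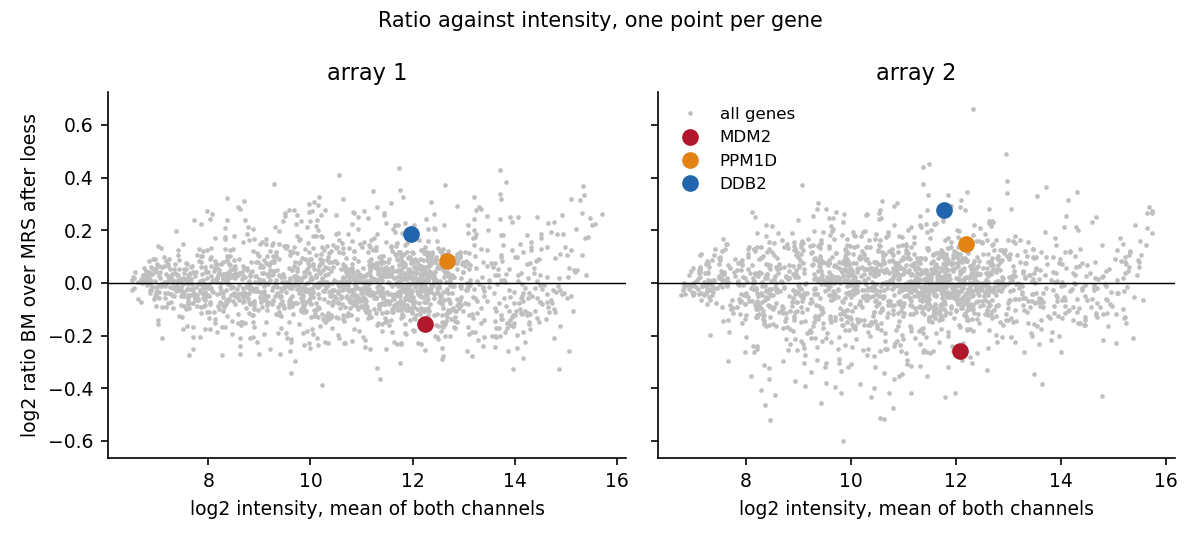
Log2 ratio of BM over MRS after loess against the mean log2 intensity of both channels, for array 1 and array 2, with 1 grey point per gene and the 3 members in colour. DDB2 lies in the upper and MDM2 in the lower outer part of the genes of like intensity on both arrays. PPM1D lies within the bulk of such genes on array 1.

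The ratios spread differently at different intensities, so each member was also set against the 200 genes nearest to it in intensity, as a robust z (difference from their median, divided by their scaled median absolute deviation). DDB2 stood at 2.21 on array 1 and 3.09 on array 2. MDM2 stood at -1.98 and -2.63. PPM1D stood at 0.65 and 1.84, within the bulk of genes of like intensity on array 1.

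The log2 ratios of duplicate spots were compared within each array. For MDM2 they differed by a log2 of 0.026 on array 1 and 0.015 on array 2, for PPM1D by 0.054 and 0.015, and for DDB2 by 0.028 and 0.00068. Over 1849 probes with 2 spots, the median difference was 0.026 on array 1 and 0.034 on array 2, so the PPM1D spots on array 1, at 0.056 and 0.11, lay further apart than those of the median probe. The difference between spots was smaller than the ratio itself for all 3 members on both arrays. It does not cover the spread between samples, of which there are 2 pairs.

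The 3 probes lay in different blocks of the 6 by 4 print layout. The median log2 ratio of the other spots in the block was -0.029 and -0.0012 (arrays 1 and 2) for MDM2, -0.0083 and 0.018 for DDB2, and 0.025 and 0.069 for PPM1D. The block of PPM1D was thus high on both arrays in the direction of the gene's own ratio. With loess fitted within each block, PPM1D stood at 0.051, against 0.11 with loess over the whole array. With the series matrix values it stood at 0.036.

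**Figure D3:**
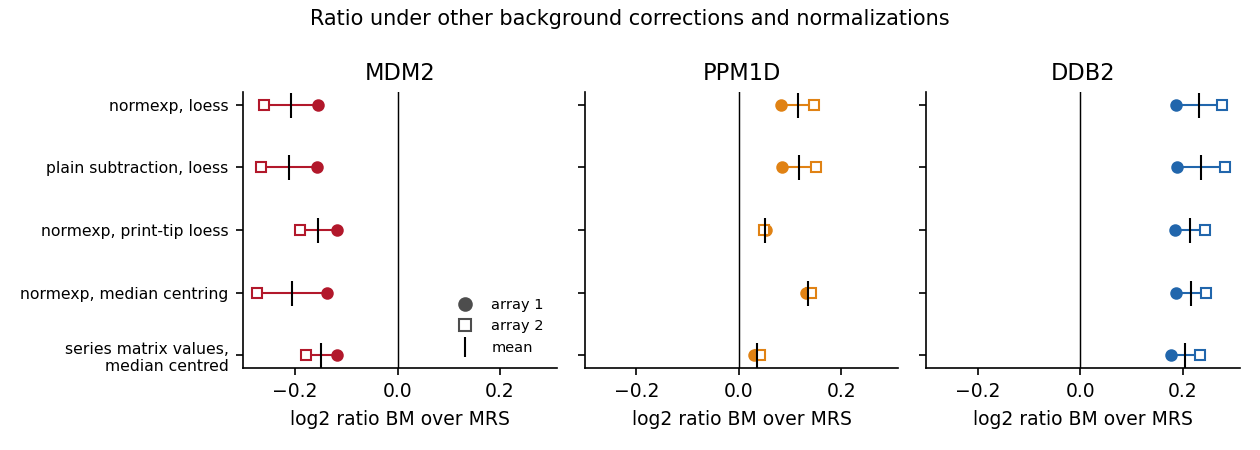
Log2 ratio of BM over MRS of the 3 members on array 1 (filled circles) and array 2 (open squares), with their mean (black tick), under 5 combinations of background correction and normalization. MDM2 stays below 0 and DDB2 above 0 in all 5 on both arrays, and PPM1D moves closest to 0, at 0.036, with the series matrix values.

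The members were also set against each other by their ratios within each array. MDM2 lay below DDB2 by a log2 difference of -0.34 on array 1 and -0.54 on array 2. It lay below PPM1D by -0.24 and -0.41. PPM1D lay below DDB2 by -0.10 and -0.13. These differences are those after loess over the whole array, and MDM2 and PPM1D lay closer together in other settings. With loess fitted within each block, MDM2 stood at -0.12 and -0.19 and PPM1D at 0.052 and 0.049 on arrays 1 and 2. With the series matrix values, MDM2 stood at -0.12 and -0.18 and PPM1D at 0.030 and 0.042. The members were chosen with their ratios known, so their differences are a description.

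In the authors' deposited table, the MDM2 spots had folds of BM over MRS of 0.904 and 0.899 and z ratios of -1.35 and -1.41. The DDB2 spots had folds of 1.15 and 1.15 and z ratios of 1.97 and 1.89 in the authors' deposited table. The PPM1D spots had folds of 1.01 and 1.03 and z ratios of 0.19 and 0.46 in the authors' deposited table. The DDB2 spots stood at the 97.4th and 97.0th percentile of all spots by that z ratio, the MDM2 spots at the 6.15th and 5.78th and the PPM1D spots at the 58.8th and 71.0th. The table is made from the same net intensities, so these values repeat the comparison and do not add to it.

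The genes nearest to each member by the pair of array ratios were also named, a likeness over 2 arrays that says nothing of shared function. FGF2 (-0.16 on array 1 and -0.26 on array 2), PTGES (-0.15 and -0.26) and HHAT (-0.17 and -0.23) were nearest to MDM2. PIGQ (0.093 and 0.14), FCGR2A (0.071 and 0.16) and DCC (0.065 and 0.14) were nearest to PPM1D. RHBDL1 (0.17 and 0.26), NEK4 (0.18 and 0.25) and CTSZ (0.22 and 0.29) were nearest to DDB2. None of these 9 genes is on the lists of the p53 network below. Those lists cover few of the 1843 genes, with 28 on the largest, so this absence says nothing about the members. RHBDL1, NEK4 and CTSZ stood at 0.67, 0.54 and 0.73 with median centring, under which DDB2 stood at 0.22. NEK4 and CTSZ stood at 0.11 and 0.13 and RHBDL1 at 0.34 with print-tip loess. HHAT stood at -0.098 and DCC at 0.055 with median centring, and PIGQ at 0.063 with print-tip loess. The likeness was computed only after loess over the whole array.

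The other targets of p53 were set beside the 3 members. Of 61 genes listed, 28 were measured, all above background, as were 1766 of all 1843 genes. Without the 3 members, 6 of 25 (24.0%) were higher in BM on both arrays and 6 (24.0%) were lower, beside 24.6% and 28.5% of all genes, and limma called 0 in either direction. The median of their mean log2 ratios was -0.0017, beside -0.0057 over all genes. For the 28 with the members it was 0.00054, and it was -0.034 with median centring and -0.012 with print-tip loess.

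**Figure D4:**
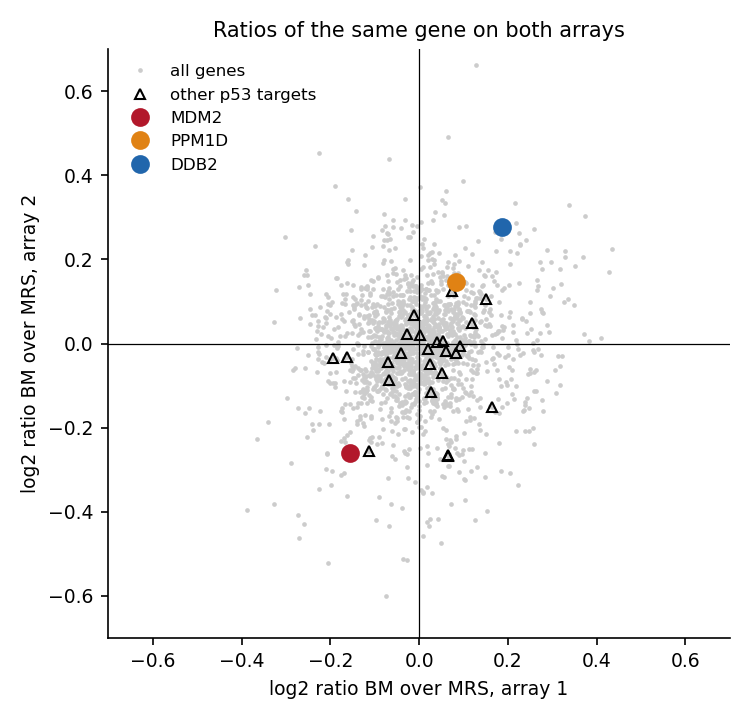
Log2 ratio of BM over MRS on array 2 against that on array 1, with all 1843 genes in grey, 24 other p53 targets as open triangles and the 3 members as coloured circles. PPM1D and DDB2 lie in the quadrant higher in BM on both arrays, MDM2 lies in the lower one beside CASP8, and the other targets spread over all quadrants.

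Among p53 targets listed under cell cycle arrest, 2 of 4 measured were lower on both arrays and 0 higher. Over all genes 28.5% were lower and 24.6% higher, shares that also apply to the lists by role that follow. Each of these lists holds few genes, and none was tested for a direction. CDKN1A, the cyclin-dependent kinase inhibitor p21 and a classical p53 target, had -0.16 on array 1 and -0.031 on array 2, with a mean of -0.097 ± 0.093 (SD, n = 2). GADD45A, a growth arrest and damage response gene, had -0.031 ± 0.012. With median centring they stood at -0.15 and -0.055, and GADD45A at -0.020 with print-tip loess. CDC25C, a phosphatase that drives entry into mitosis, and SFN, the arrest gene 14-3-3 sigma, had opposite signs on the arrays. Since CDC25C works against arrest, higher and lower in this list do not stand for more and less arrest.

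Besides DDB2, the repair targets held 1 gene higher on both arrays and 2 lower among 5 measured. XPC, which receives lesions from DDB2, had -0.057 ± 0.019 (SD, n = 2), and it ran from -0.10 with median centring to 0.0060 with the series matrix values. FANCC, of the Fanconi anaemia pathway, had -0.11 ± 0.11, and POLH, a polymerase that copies past ultraviolet lesions, had 0.023 ± 0.026. POLH turned to -0.015 with print-tip loess. The remaining 2 had opposite signs on the arrays, among them PCNA, the sliding clamp of DNA polymerases.

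Of 9 apoptosis targets, 2 were higher on both arrays, 2 lower and 5 had opposite signs. CASP8, the initiator caspase of death receptors, had -0.18 ± 0.10 (SD, n = 2) and BAX, which permeabilises mitochondria, had -0.077 ± 0.013. The death receptor gene TNFRSF10A had 0.10 ± 0.037 and the initiator caspase gene CASP10 0.030 ± 0.033. BAX ran from -0.13 with median centring to -0.014 with the series matrix values, CASP10 from 0.0071 with median centring to 0.058 with the series matrix values, and TNFRSF10A stood at 0.16 with median centring.

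Of 6 targets in metabolism and the matrix, 3 were higher on both arrays and 0 lower, beside 24.6% and 28.5% of all genes. MMP2, a matrix protease, had 0.13 ± 0.033 (SD, n = 2), TSC2, a brake on mTOR, had 0.084 ± 0.049, and IGFBP3, which binds insulin-like growth factors, had 0.011 ± 0.012. IGFBP3 turned to -0.037 and TSC2 stood at 0.054 with print-tip loess. TP73, a relative of p53 and the only feedback gene measured besides MDM2 and PPM1D, had -0.012 on array 1 and 0.068 on array 2.

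**Figure D5:**
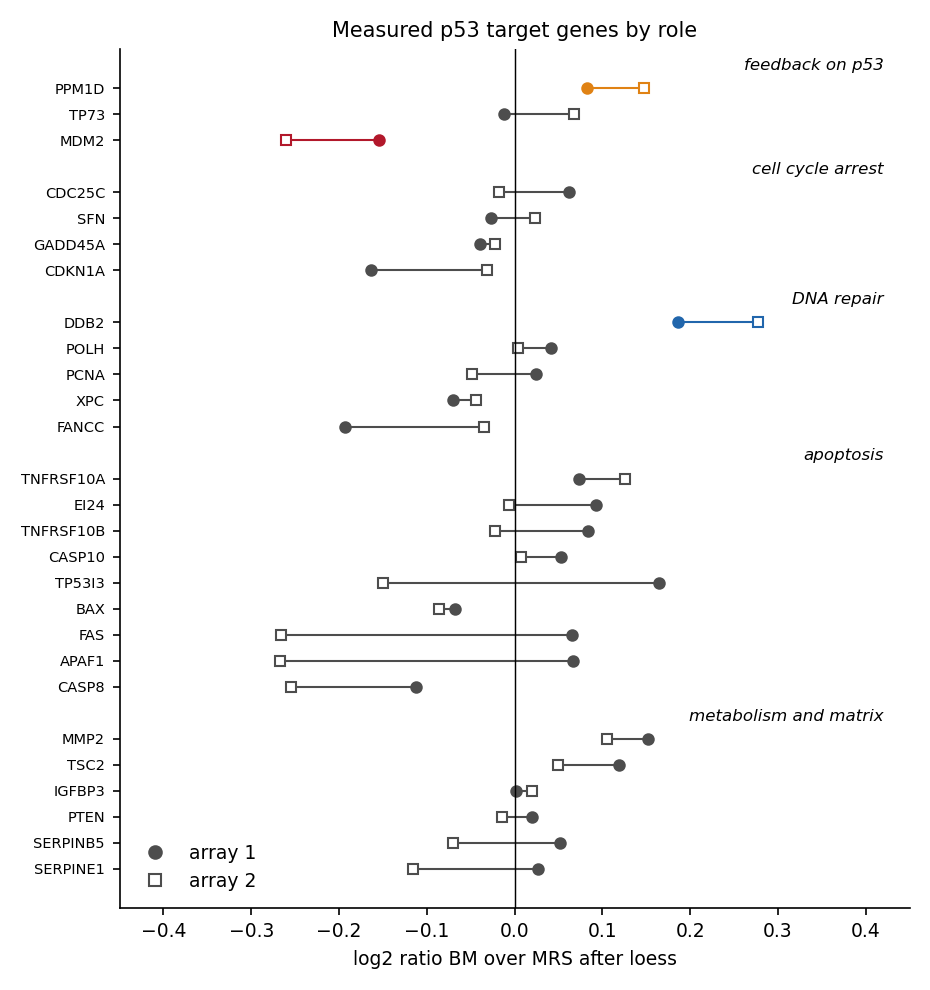
Log2 ratio of BM over MRS after loess of 27 of the measured p53 targets, grouped by role, on array 1 (filled circles) and array 2 (open squares), with MDM2, PPM1D and DDB2 in colour. DDB2 has the highest and MDM2 the lowest mean ratio of the 27, the kind of value they were chosen on, and 12 genes have points on both sides of 0.

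Upstream regulators of p53 were set beside its targets. Among the 10 genes of that list that were measured, both arrays showed 3 higher and 2 lower, beside 24.6% and 28.5% of all genes. The median of the list was 0.025. TP63, another relative of p53, had 0.082 ± 0.014, and AKT1, a kinase that activates MDM2, had 0.081 ± 0.058. ATM, the kinase that phosphorylates p53 and MDM2 after strand breaks, had -0.084 ± 0.0048. With print-tip loess ATM stood at -0.051 and AKT1 at 0.015, with AKT1 at -0.048 on array 2 and so no longer higher on both arrays. With the series matrix values AKT1 stood at 0.021, with -0.046 on array 2.

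Of 7 binding partners of MDM2 and p53 measured, 3 were higher on both arrays and 2 lower, beside 24.6% and 28.5% of all genes. RPL5, a ribosomal protein that binds and inhibits MDM2, had 0.24 ± 0.028 (SD, n = 2), but 0.082 with print-tip loess and 0.73 with median centring. RB1, the retinoblastoma protein gene, had -0.14 ± 0.048. RPS3 had 0.090 ± 0.0089 and NPM1, a nucleolar protein that binds MDM2, had 0.046 ± 0.0015, which turned to -0.011 with print-tip loess. RPS3 stood at 0.042 with print-tip loess. USP7, which removes ubiquitin from MDM2 and p53, was the other gene lower on both arrays, at -0.049 ± 0.019.

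Apart from MDM2, 6 genes of the substrates of PPM1D and its related enzymes were measured, and 1 was higher on both arrays and 2 lower (ATM and XPC). The shares over all genes were 24.6% and 28.5%. CHEK2, a checkpoint kinase that PPM1D dephosphorylates, had -0.030 on array 1 and 0.057 on array 2. The group's median without MDM2 was -0.032.

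Nucleotide excision repair, the pathway DDB2 serves, had 1 of 13 measured genes higher on both arrays (7.69%) and 4 lower (30.8%). Over all genes 24.6% were higher and 28.5% lower. The median of the 13 was -0.016. ERCC4, a subunit of the repair nuclease, had 0.25 on array 1 and 0.036 on array 2. ERCC8 (CSA), which acts in transcription-coupled repair, had -0.13 ± 0.018 (SD, n = 2), and ERCC6 (CSB), of the same branch, had -0.0085 on array 1 and -0.33 on array 2. From the series matrix ERCC8 stood at -0.067, and under print-tip loess at -0.065. ERCC4 stood at 0.096 with median centring, with -0.0080 on array 2, and ERCC6 at -0.11 with the series matrix values, with 0.025 on array 1. DDB2 was chosen by its ratio, so a contrast between it and these partners is not drawn. Limma called 0 of the 13, as it called 0 of all 1843 genes.

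Of the reference genes, GAPDH had 0.020 ± 0.0083 (SD, n = 2), and -0.017 with median centring. The ACTB probe was not above background in every sample, and its ratio is not given as a reference. The ratios of array 1 and array 2 had a Pearson's r of 0.108 over 1843 genes, a description over genes of shared arrays. The standard deviation of all gene ratios was 0.11 on array 1 and 0.13 on array 2. The number of arrays limits the precision of every ratio above.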

How the data were processed

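For 2 arrays, per the file headers, the files deposited by the authors hold the raw intensity, the local background and the net intensity of 3840 spots in both channels, and a ratio of the net intensities. The MRS net intensity equals raw minus background, and the BM net intensity holds a further factor whose method the sources used here do not give. The series matrix holds the same net intensities. The authors' deposited table gives a fold, a z ratio (a score) and a p-value per spot. The p-value was not used. R 4.2.2 is listed in the submitters' processing notes.

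Raw intensities were corrected with normexp (offset 50) and loess within arrays in limma 3.58.1 (R 4.3.3), with 54 control spots at weight 0 and then left out. Duplicate spots were averaged, and the brightest probe stood for its gene, giving 1843 genes. PPM1D and DDB2 were matched by accession and MDM2 by symbol through the RefSeq table of GRCh38.p14. The probe sequences were not among the sources used here, so which transcripts the probes detect was not checked. Genes were tested with limma on the 2 ratios (eBayes, two-sided, Benjamini-Hochberg over 1843 genes, threshold 0.05). Working with ratios blocks on the array and thereby on the replicate number. The pairing comes from the labels, which place both samples of a number on the same array. Replicate numbers here are those of the titles, while the sample descriptions and headers number the same pairs 2 and 3. The steps were run on simulated data with set changes larger than the ratios of the members. That run therefore says nothing about ratios of this size. List genes were named by the smaller of their 2 absolute ratios, up to 4 per list, and the 3 nearest genes per member by distance over both ratios. USP7 and the genes named with opposite signs were added after their values were seen. A few list genes are counted but not reported here by name. The members and lists were chosen with earlier results of these data known.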

Additional observations from a re-analysis of the deposited data

How the results depend on the processing

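Over the 8 settings that keep all samples, MDM2 lay between -0.21 and -0.15 and DDB2 between 0.20 and 0.24. PPM1D ran from 0.036 to 0.14, at 0.051 under print-tip loess and 0.036 from the series matrix. Leaving out dim probes, averaging the probes of a gene and dropping the block could not change the members. Each member has 1 bright probe, so only the other settings bear on how stable these values are. The median of the 28 p53 targets turned to -0.034 with median centring and -0.012 with print-tip loess, and median centring called 34 genes in place of 0, of which 33 were higher in BM. The cause was not tested. Without the array as a replicate block, the paired means of MDM2, PPM1D and DDB2 were by construction the same (-0.21, 0.11 and 0.23). The list median, at 0.00054, was also the same by construction. In that fit 0 genes passed, with 0 at an unadjusted p under 0.05 against 121 in the paired fit. Without replicate 1 or 2 (1 array), or without 1 sample and without the block, gave -0.33 to -0.089 for MDM2, -0.16 to 0.39 for PPM1D, 0.11 to 0.35 for DDB2, -0.057 to 0.11 for the list median, and 0 genes past the threshold wherever a test could be made. Without BM replicate 1 or BM replicate 2, DDB2 stood at 0.16 and 0.31, and PPM1D without BM replicate 2 at 0.36. The list median was -0.023 and 0.046 without replicate 1 and 2, and 0.094 and -0.025 without MRS replicate 1 and MRS replicate 2. PPM1D turned negative without BM replicate 1 (-0.13) and without MRS replicate 2 (-0.16), where the unpaired array's level enters the difference. With 1 array there is no test. Of the other genes named, XPC turned to 0.0060 with the series matrix values. POLH, IGFBP3 and NPM1 turned to -0.015, -0.037 and -0.011 under print-tip loess, and from the series matrix to -0.0098, -0.040 and -0.014. ACTB and GAPDH turned to -0.0039 and -0.017 with median centring, and ACTB, whose probe was not above background in every sample, stood at -0.0100 on array 2 and 0.078 on array 1.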
